A study of Mus musculus with 6 samples.

Results

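The TGF-beta and Smad genes of N9 microglia, a mouse microglial cell line, were described in 6 RNA-seq libraries. Transforming growth factor beta is a secreted, latent growth factor that, once released from its binding proteins, brings a type II receptor kinase (Tgfbr2) and a type I receptor kinase (Tgfbr1) together at the cell surface. The type I receptor then phosphorylates Smad2 and Smad3, which enter the nucleus with Smad4 and regulate target genes, while Smad7 is an inhibitory Smad that is itself induced by the pathway and turns the receptor off. In the brain the pathway is known for keeping microglia in their resting, homeostatic state. The genes were 10 of the 54532 in the count table, taken by name: the ligands Tgfb1, Tgfb2 and Tgfb3, the receptors Tgfbr1 and Tgfbr2, the signal transducers Smad2, Smad3 and Smad4, the inhibitor Smad7, and the target gene Tgfbi, which encodes a secreted matrix protein. The LPS group was 3 samples of N9 cells stimulated with lipopolysaccharide (LPS), a bacterial cell-envelope glycolipid sensed by microglia, at 1 µg/ml for 6 h, and the control group was 3 samples of unstimulated cells. All 6 came from a single immortalized line grown in medium with serum, so no other genotype was measured, and the sources used here do not say whether the 3 samples of a group were separate cultures. The p-values then measure the spread between these samples, which may be technical. The comparison asks how the LPS response of these cells changes the RNA of each gene.

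Total counts lay between 16363767 and 17956772 per library. Of 13 microglia and macrophage markers, 11 were over 10 counts in every library, whereas Aif1 held 4 to 9 counts and P2ry12, a marker of resting microglia, 3 to 6. Their summed level was between 2180 and 2250 CPM (counts scaled to library size with TMM factors) in the control and between 2380 and 2430 CPM in the LPS libraries. Of these markers Spi1 (0.58), Ptprc (0.24) and Csf1r (0.16) rose and Trem2 (-0.52) and Adgre1 (-0.23) fell on the log2 scale (edgeR adjusted p from 5.4e-08 to 0.00517). Some markers of other cell types were uneven between libraries. The summed level of 9 hepatocyte markers was 15.1 and 24.2 CPM in control replicates 2 and 3 and between 0.19 and 0.547 CPM in the other libraries. That of 7 fibroblast markers, 3 of them collagens, was 11.8, 7.74 and 8.42 CPM in control replicates 1 and 3 and LPS replicate 1, and between 0.453 and 1.04 CPM in the rest. The summed level of 5 endothelial markers, of which Cldn5 was at 0 throughout, moved with treatment, from 0.583, 0.34 and 0.914 CPM in the control libraries to 1.65, 2.32 and 2.07 CPM in the LPS libraries. Of these 5 markers only Kdr, a VEGF receptor, was tested. It rose from 2, 2 and 8 counts to 13, 19 and 21 (log2 fold change 2.24). Kdr passed the filter on low counts through its LPS libraries alone, so being tested depended on the rise and no p-value is given. Of 6 astrocyte markers, 2 were over 10 counts in every library, and the sum was between 95.9 and 105 CPM. Of these 2, Gja1, a gap junction protein, rose (0.18, edgeR adjusted p = 0.00989) and Aldh1l1, a folate enzyme, fell (-0.29, edgeR adjusted p = 0.0129). The part of these transcripts in the results below was not tested beyond leaving the libraries out.

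Levels of the 10 genes differed widely per gene length. In RPKM (CPM per kilobase of deposited gene length, computed here), Tgfb1 had the highest level, at 48.2 ± 1.56 RPKM in control and 51.4 ± 1.97 RPKM in LPS libraries (SD, n = 3). In control libraries it was followed by Smad2 at 20.5 RPKM, Smad4 at 19.1, Tgfbr1 at 9.77, Tgfbr2 at 6.17, Smad7 at 1.21, Tgfbi at 0.688 and Smad3 at 0.135 RPKM. Each of these neighbours was separated in all 3 control libraries. Tgfb3 and Tgfb2 lay last, their levels overlapped, and each was at 0 counts in at least 1 control library. With LPS the same 8 genes came first, Smad4 (18.4 to 23.4 RPKM) and Smad2 (19.8 to 20.3 RPKM) overlapped, and Smad3 (0.0457 to 0.154 RPKM) overlapped Tgfb2. The gene lengths are those of the deposited table, so an order between genes depends on them.

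**Figure D1:**
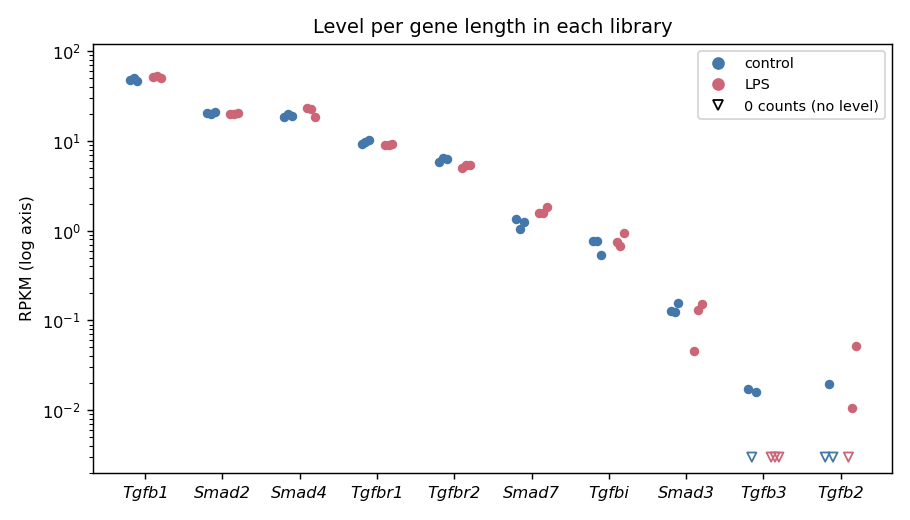
RPKM of each of the 10 genes (log axis) in the 3 control (blue) and 3 LPS (red) libraries, ordered by the control mean; open triangles mark libraries with 0 counts, which have no level on a log axis. Tgfb1 is highest at about 48.2 RPKM in control libraries, and Smad3, Tgfb3 and Tgfb2 lie lowest in both groups.

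The promoters of the ligand Tgfb1 and of both receptors are shown because these genes form the signalling entry of the pathway in these cells and Tgfbr2 is the one whose RNA fell. They are the 250 bases before the RefSeq start site on GRCm38.p6, 5′ to 3′ on the gene's strand, for Tgfb1 chr7:25686752-25687001 (plus strand), Tgfbr1 chr4:47352972-47353221 (plus strand) and Tgfbr2 chr9:116175364-116175613 (minus strand). Capitals mark matches, on either strand, to the Smad-binding core CAGAC, the GC box GGGCGG, the AP-1 site TGANTCA or the TATA box TATAAA.
Tgfb1: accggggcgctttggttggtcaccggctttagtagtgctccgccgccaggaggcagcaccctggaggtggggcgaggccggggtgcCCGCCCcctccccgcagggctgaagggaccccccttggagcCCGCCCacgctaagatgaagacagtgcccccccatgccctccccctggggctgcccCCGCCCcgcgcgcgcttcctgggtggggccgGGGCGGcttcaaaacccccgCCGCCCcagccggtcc
Tgfbr1: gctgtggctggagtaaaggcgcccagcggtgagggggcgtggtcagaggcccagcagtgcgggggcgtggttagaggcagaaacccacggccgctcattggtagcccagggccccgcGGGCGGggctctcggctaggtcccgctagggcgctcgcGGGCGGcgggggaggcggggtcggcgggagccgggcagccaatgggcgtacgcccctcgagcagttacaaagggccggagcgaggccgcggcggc
Tgfbr2: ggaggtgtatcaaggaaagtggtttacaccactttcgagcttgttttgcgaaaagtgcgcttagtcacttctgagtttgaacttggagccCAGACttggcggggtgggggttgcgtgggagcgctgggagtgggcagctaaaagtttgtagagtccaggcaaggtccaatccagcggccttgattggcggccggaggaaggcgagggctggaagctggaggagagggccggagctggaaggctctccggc

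The Tgfb1 promoter held 5 GC boxes and none of the other motifs, and its GC content was 75.2%. The Tgfbr1 promoter held 2 GC boxes, at a GC content of 74.8%. The Tgfbr2 promoter held 1 Smad-binding core, which began 160 bases before the start site, and no GC box, at a GC content of 58.4%. All 3 lay above the median GC content of 52.4% over 32851 promoters of the same length. Of those, 42.2% held a Smad-binding core, 32.7% a GC box, 6.75% an AP-1 site and 12.4% a TATA box, so these short motifs are common and a match describes the letters and no more. Of the 10 genes, 6 had an entry in the set of RefSeq promoters used here. A missing entry describes that set alone, and Smad7 was among the genes without one. The second Tgfbr1 start site in the set, inside the gene, held 1 Smad-binding core in its 250 bases.

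Tgfb1 (ENSMUSG00000002603) was by far the most abundant ligand, and it did not pass the test between LPS and control. It lies on chromosome 7 from 25687002 to 25705077 on mm10, the build that the submitters' processing notes name. It held 4131, 4442 and 4396 counts without LPS (replicates 1, 2 and 3, the order used throughout) and 4065, 4424 and 4108 with it, or 241, 252 and 236 CPM against 257, 270 and 250 CPM. The highest control library lay above the lowest LPS library. The log2 fold change was 0.092 ± 0.045 (SE, edgeR quasi-likelihood test, adjusted p = 0.136), with a 95% interval from 0.997-fold to 1.14-fold. Its sign depended on the scaling, being -0.0061 (adjusted p = 0.93) when library totals were used without TMM factors. That setting moved the median log2 fold change of all genes from 0.0036 to -0.095.

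The other ligands were nearly absent. Tgfb2 (ENSMUSG00000039239), which lies on chromosome 1 from 186622792 to 186705989, held 0, 2 and 0 counts without LPS and 0, 1 and 5 with it. Tgfb3 (ENSMUSG00000021253), which lies on chromosome 12 from 86056745 to 86079041, held 1, 0 and 1 counts without LPS and 0 in every library with it. A count of 3 corresponds to between 0.161 and 0.19 CPM, a level that only Tgfb2 in LPS replicate 3 exceeded (0.304 CPM). Neither gene passed the filter on low counts, so neither was tested and no fold change is given. Tgfb3 shares its interval with Ttll5 on the opposite strand (404 to 468 counts), and the handling of strand in the counting is not given in the sources used here. Per length, Tgfb1 made up between 99.89% and 100% of the ligand RNA of each library. The mean was 99.96% in both groups (exact permutation test, two-sided, p = 1, n = 3 per group).

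Of the receptors, Tgfbr2 fell with LPS and Tgfbr1 did not pass the test. In bulk RNA, fewer cells that express a gene and less RNA per cell cannot be told apart. Tgfbr2 (ENSMUSG00000032440), the type II receptor that binds the ligand first, lies on chromosome 9 from 116084293 to 116175360. It held 814, 933 and 954 counts without LPS and 648, 727 and 731 with it, or 47.5, 52.8 and 51.3 CPM against 41.0, 44.3 and 44.5 CPM. Every LPS library lay below every control library. The log2 fold change was -0.22 ± 0.064 (SE, edgeR adjusted p = 0.0133), a level 0.856-fold that of control cells with a 95% interval from 0.779 to 0.941. Without LPS replicate 1, which had the lowest level, Tgfbr2 changed by -0.19 and was no longer called (edgeR adjusted p = 0.0581). Tgfbr2 was also called by DESeq2, and without the TMM factors its log2 fold change was -0.32 (edgeR adjusted p = 0.00105). Without the libraries that held hepatocyte transcripts it was -0.13 (adjusted p = 0.337), with 1 control library left, and without those that held collagen transcripts it was -0.26 (adjusted p = 0.0954), with 1 control library left.

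Tgfbr1 (ENSMUSG00000007613), the type I receptor kinase that phosphorylates Smad2 and Smad3, lies on chromosome 4 from 47353222 to 47414931. It held 1042, 1134 and 1237 counts without LPS and 928, 965 and 993 with it, or 60.8, 64.2 and 66.5 CPM against 58.8, 58.8 and 60.4 CPM. The groups did not overlap, but control replicate 1 lay just above LPS replicate 3. The log2 fold change of -0.11 ± 0.054 (SE, edgeR adjusted p = 0.148) did not pass the test, and its 95% interval ran from 0.858-fold to 1.01-fold. Tgfbr1 was called without control replicate 1 (-0.15, edgeR adjusted p = 0.0462) and without the TMM factors (-0.20, adjusted p = 0.00761). Within a library the scaling cancels. The ratio of Tgfbr1 to Tgfbr2 per length lay between 1.52 and 1.63 in the control libraries and between 1.66 and 1.79 in the LPS libraries, without overlap. The difference of 0.12 on the log2 scale had an exact permutation p of 0.1 (two-sided, n = 3 per group), the smallest that 3 against 3 libraries allow.

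**Figure D2:**
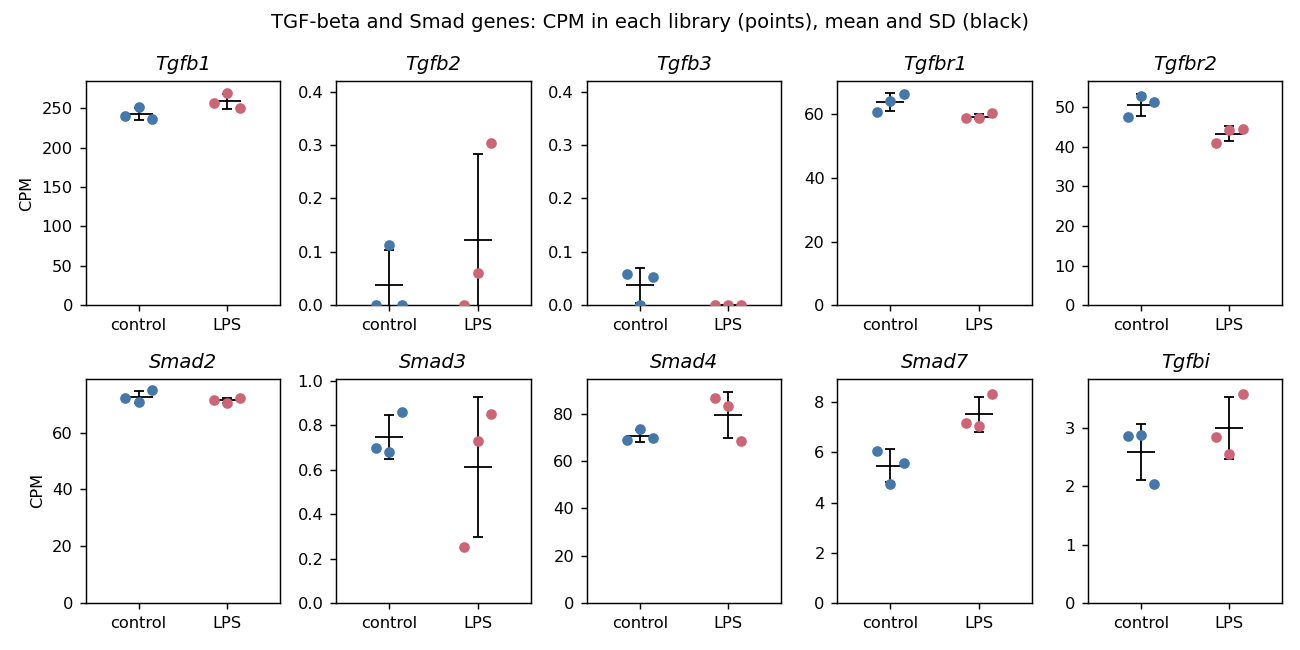
CPM (TMM-normalized, linear axes from 0) of each gene in the 3 control (blue) and 3 LPS (red) libraries, in the order of replicates 1, 2 and 3, with the mean and SD in black (SD bars end at 0). Tgfbr2 is lower and Smad7 higher in every LPS library, whereas Tgfb2 and Tgfb3 rest on 0 to 5 counts.

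Among the transducers, Smad2 and Smad3 were not called, and Smad2 lay far above Smad3 per length. Smad2 (ENSMUSG00000024563), on chromosome 18 from 76241580 to 76305731, held 1238, 1250 and 1395 counts without LPS and 1128, 1154 and 1187 with it. These were 72.2, 70.8 and 75.0 CPM against 71.4, 70.3 and 72.2 CPM, and the groups overlapped. Its LPS to control log2 ratio was -0.027 ± 0.048 (SE, edgeR adjusted p = 0.713) and had a 95% interval from 0.913-fold to 1.06-fold. Smad3 (ENSMUSG00000032402), on chromosome 9 from 63646767 to 63757994, held 12, 12 and 16 counts without LPS and 4, 12 and 14 with it. LPS replicate 1 was low and the others lay among the controls. It changed by -0.28 ± 0.45 on the log2 scale (SE, edgeR adjusted p = 0.682) and became 0.081 without LPS replicate 1, so that neither its sign nor its size was resolved at this depth. The 95% interval ran from 0.422-fold to 1.61-fold. Per length, Smad2 exceeded Smad3 161-fold, 163-fold and 136-fold in the control libraries and 440-fold, 150-fold and 132-fold in the LPS libraries. The difference in log2 ratio was 0.43 (exact permutation test, two-sided, p = 0.9, n = 3 per group), and it was -0.12 without LPS replicate 1.

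Smad4 (ENSMUSG00000024515), the common partner of the receptor-regulated Smads, lies on chromosome 18 from 73639009 to 73703780. It held 1183, 1299 and 1297 counts without LPS and 1373, 1366 and 1124 with it, or 69.0, 73.6 and 69.7 CPM against 87.0, 83.2 and 68.4 CPM. LPS replicates 1 and 2 lay above every control library and LPS replicate 3 below every one. The log2 fold change of 0.17 ± 0.074 (SE, edgeR adjusted p = 0.0973) did not pass the test, with an interval from 1.01-fold to 1.25-fold before adjustment for the number of genes. Without LPS replicate 3 it was 0.27 and passed (edgeR adjusted p = 0.00338).

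Smad7, the inhibitory Smad, rose. Smad7 (ENSMUSG00000025880), on chromosome 18 from 75367529 to 75395935, held 104, 84 and 104 counts without LPS and 113, 116 and 137 with it, or 6.07, 4.76 and 5.59 CPM against 7.16, 7.07 and 8.33 CPM. Every LPS library lay above every control library. The log2 fold change was 0.46 ± 0.15 (SE, edgeR adjusted p = 0.0289), a 1.37-fold higher level with a 95% interval from 1.10-fold to 1.72-fold. At about 100 counts a library this call was not firm. It was lost without control replicate 2 (0.36, edgeR adjusted p = 0.114), without control replicate 3 (0.47, adjusted p = 0.0678), without LPS replicate 3 (0.38, adjusted p = 0.111), by DESeq2 (0.45, adjusted p = 0.104) and without the TMM factors (0.36, adjusted p = 0.0728). Without the libraries that held hepatocyte transcripts the log2 fold change was 0.31 (edgeR adjusted p = 0.336), and without those that held collagen transcripts 0.68 (adjusted p = 0.136). Within each library, the ratio of Smad7 to the sum of Smad2 and Smad3 per length was 0.0655, 0.0524 and 0.0581 in the control and 0.0785, 0.0784 and 0.0899 in the LPS libraries. The groups did not overlap, and the difference of 0.49 on the log2 scale had an exact permutation p of 0.1 (two-sided, n = 3 per group).

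Tgfbi (ENSMUSG00000035493), named for its induction by the pathway, lies on chromosome 13 from 56609523 to 56639562. It held 49, 51 and 38 counts without LPS and 45, 42 and 59 with it, or 2.86, 2.89 and 2.04 CPM against 2.85, 2.56 and 3.59 CPM. The groups overlapped. The collagen-bearing libraries held between 2.04 and 2.86 CPM of Tgfbi and the other libraries between 2.56 and 3.59 CPM, so these ranges overlapped too. Its change was 0.21 ± 0.24 on the log2 scale (SE, edgeR adjusted p = 0.545) and had a 95% interval from 0.813-fold to 1.65-fold. The value was 0.056 without control replicate 3 and 0.062 without LPS replicate 3, the lowest control and the highest LPS library.

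Of the 10 genes, 8 passed the filter on low counts and were tested. At an adjusted p under 0.05, 1 of the 8 rose (Smad7) and 1 fell (Tgfbr2), together 25%. Over all 12296 genes tested 34.3% were called, 18.7% as higher and 15.7% as lower, so the share among the 8 was not above the background. An unadjusted p under 0.05 was reached by 3 of the 8 and by 42.8% of all genes. None of the 8 was a DEG by edgeR at the study's further threshold of an absolute log2 fold change over 1.5, which 2.65% of all genes passed. The count was likewise 0 at an unadjusted p under 0.05 with that fold change and 0 by DESeq2. For 3 of the 8 genes the CPM of the groups did not overlap, against 45.3% of all genes. Their median log2 fold change was 0.033 and that of all genes 0.0036. Scaling by library totals changed the split over all genes, from 54.3% of calls higher to 31.3%, and among the 8 it left 2 calls, both lower (Tgfbr1 and Tgfbr2). No gene of the 8 was called when the libraries with hepatocyte transcripts, or those with collagen transcripts, were left out, settings with fewer samples in which the share called over all genes was 21.9% and 10.4%.

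**Figure D3:**
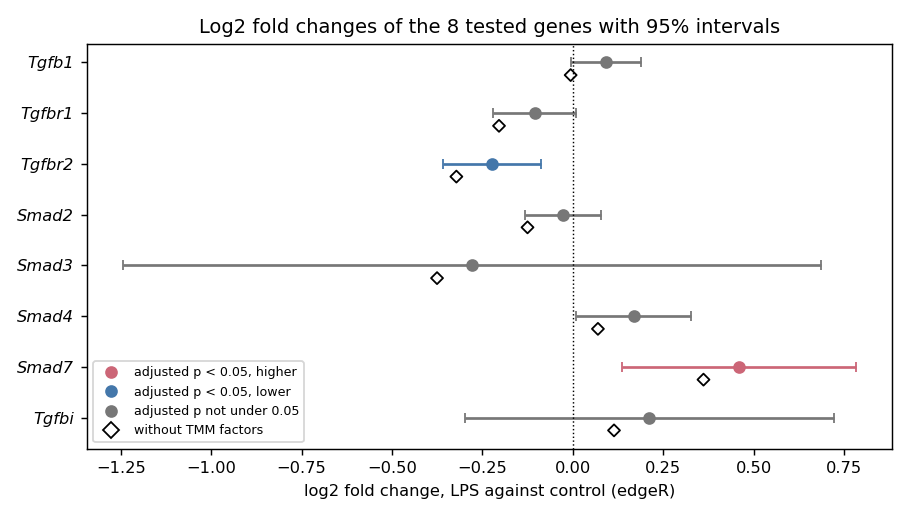
Log2 fold change of LPS against control for the 8 tested genes (points) with 95% intervals (bars, edgeR), coloured by the call at an adjusted p under 0.05; open diamonds show the value without TMM factors. Smad7 lies at 0.46 and Tgfbr2 at -0.22, and the diamonds lie lower for every gene, with Smad7 at 0.36 and Tgfbr2 at -0.32.

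The genes around this core were read from 9 lists by role. Because the lists were chosen with earlier results of these data known, the share called in them is descriptive only. They held 142 genes in the table, of which 87 were tested. Of these 87, 21 rose and 19 fell, together 46% against the 34.3% over all genes. The median log2 fold change was -0.0082. Without the collagen-bearing libraries 19 of the list genes were called, while the share over all genes was 10.4%. Genes listed for latency and activation of the ligand went in both directions. Of 17 listed, 9 were tested, 2 rose and 3 fell, together 55.6%, with a median of -0.073. Furin, the protease that cleaves the TGF-beta precursor, rose from 233 ± 3.75 to 323 ± 14.9 CPM (SD, n = 3; log2 fold change 0.47 ± 0.045, SE, edgeR adjusted p = 8.9e-07). Itgb5, an integrin subunit that pairs with the alpha V chain to release the ligand, fell from 73.9 ± 1.25 to 51.8 ± 1.06 CPM (-0.51 ± 0.050, edgeR adjusted p = 1.3e-06). Nrros, the milieu molecule that presents latent TGF-beta on microglia, fell from 101 ± 2.08 to 88.8 ± 1.87 CPM (-0.18 ± 0.045, edgeR adjusted p = 0.0048), a call lost without the collagen-bearing libraries (-0.20, adjusted p = 0.111). Ltbp2, a latency-protein family member, fell from 4.87 ± 0.73 to 3.32 ± 0.585 CPM (-0.55, edgeR adjusted p = 0.0468). That call was lost without control replicate 1 (-0.45), control replicate 2 (-0.55), LPS replicate 1 (-0.41) or LPS replicate 2 (-0.59), by DESeq2 and with a replicate block. Highest per length were Itgb1 at 125 and Itgav at 32.4 RPKM in control libraries. Itgb1 rose by 0.15 (edgeR adjusted p = 0.00471), or by 0.053 and uncalled without TMM factors, and Itgav changed by -0.087 (adjusted p = 0.218, or -0.14 and called without control replicate 1, and -0.19 and called without TMM factors).

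The wider superfamily includes the bone morphogenetic proteins and activins. Of 22 other ligands, 20 were below the filter and 1 of the 2 tested rose. Gdf15, a stress-induced ligand, rose from 22.2 ± 2.51 to 27.7 ± 3.15 CPM (0.32 ± 0.10, edgeR adjusted p = 0.0272) although LPS replicate 3 and control replicate 3 were alike at 24.2 CPM. The call was lost without control replicate 1 (0.22), LPS replicate 1 (0.30) or LPS replicate 2 (0.25), and without TMM factors (0.22). Gdf11 had group means of 4.26 CPM in control and 3.59 CPM in LPS libraries (-0.25, adjusted p = 0.359). Of 13 other receptors, 10 were tested, with a median of 0.039, and 1 rose and 1 fell, together 20% against 34.3% over all genes. Acvr2a, a type II activin receptor, rose from 13.2 ± 0.424 to 16.6 ± 1.36 CPM (0.34, edgeR adjusted p = 0.0172), a call lost without control replicate 3 (0.30) or LPS replicate 1 (0.27), and without TMM factors (0.24). Bambi, a decoy receptor without a kinase, held 37, 25 and 51 counts without LPS and 21, 15 and 18 with it (-0.92 ± 0.32, edgeR adjusted p = 0.0401). It was called without control replicate 2 but lost without any of the other 5 libraries, with values from -1.07 to -0.69. DESeq2 called neither Acvr2a nor Bambi. The receptors highest per length, Eng at 41.6 and Bmpr1a at 24.8 RPKM in control libraries, changed by 0.12 (adjusted p = 0.0533) and 0.050 (adjusted p = 0.496). Eng was called without the hepatocyte-bearing libraries (0.20, edgeR adjusted p = 0.0463) and with a replicate block. Extracellular antagonists were represented by Twsg1, a BMP-binding protein, since 10 of the 11 listed were below the filter. It fell from 170 ± 3.96 to 110 ± 5.98 CPM (-0.62 ± 0.049, edgeR adjusted p = 1.2e-07). Nbl1, second by the mean level per length over both groups, held 1 to 10 counts per library, and Dcn, second in control libraries, 2 to 19.

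Nuclear partners of the Smads and genes of Smad turnover went in both directions. Of 17 other Smads and nuclear partners, 14 were tested, 3 rose and 5 fell, together 57.1% against 34.3% over all genes, with a median of -0.053. Tgif1, a homeobox repressor that binds Smad2 and Smad3, rose from 31.8 ± 0.961 to 51.0 ± 2.73 CPM (0.68 ± 0.065, edgeR adjusted p = 1.1e-06). The related Smad repressors Skil and Ski went opposite ways. Skil rose from 88.1 ± 4.27 to 121 ± 3.64 CPM (0.46, edgeR adjusted p = 3.4e-06), and Ski fell from 125 ± 7.87 to 101 ± 2.46 CPM (-0.31, edgeR adjusted p = 2.5e-04). Rbl1, the pocket protein p107, fell by 0.50 on the log2 scale (edgeR adjusted p = 1.2e-05). Smad1, a Smad of the BMP branch, fell by 0.36 (edgeR adjusted p = 0.0228), a call lost without control replicate 2 (-0.34), control replicate 3 (-0.36) or LPS replicate 2 (-0.29) and by DESeq2. E2f4, highest per length beside Ski, changed by -0.070 (adjusted p = 0.317), or by -0.17 and called without TMM factors (adjusted p = 0.0161). Of 19 genes of Smad turnover, transport and receptor adaptors, 18 were tested, 7 rose and 3 fell, together 55.6%, with a median of 0.069. The ubiquitin ligases Nedd4l (43.0 ± 3.74 to 69.8 ± 2.36 CPM, 0.70) and Smurf1 (75.7 ± 4.44 to 110 ± 4.22 CPM, 0.54), which mark Smads or receptors for removal, rose (edgeR adjusted p = 8.1e-07 and 1.3e-06). A relative, Wwp1, fell by 0.33 (edgeR adjusted p = 6.6e-04). Ppp1r15a, the phosphatase subunit Gadd34, rose by 0.52 (edgeR adjusted p = 1.7e-04). Highest per length were Strap, which changed by 0.076 (adjusted p = 0.191), and Fkbp1a, which binds the type I receptor and rose by 0.19 (edgeR adjusted p = 0.00156), or by 0.093 and uncalled without TMM factors. Of 10 genes of the branch without Smads (kinases, a GTPase, adaptors and a ubiquitin ligase), 1 was called (10%), with a list median of 0.013. Map2k3, a kinase upstream of p38, rose from 206 ± 10.0 to 264 ± 2.31 CPM (0.36, edgeR adjusted p = 2.0e-05), while Rhoa changed by -0.00105 (adjusted p = 0.987).

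**Figure D4:**
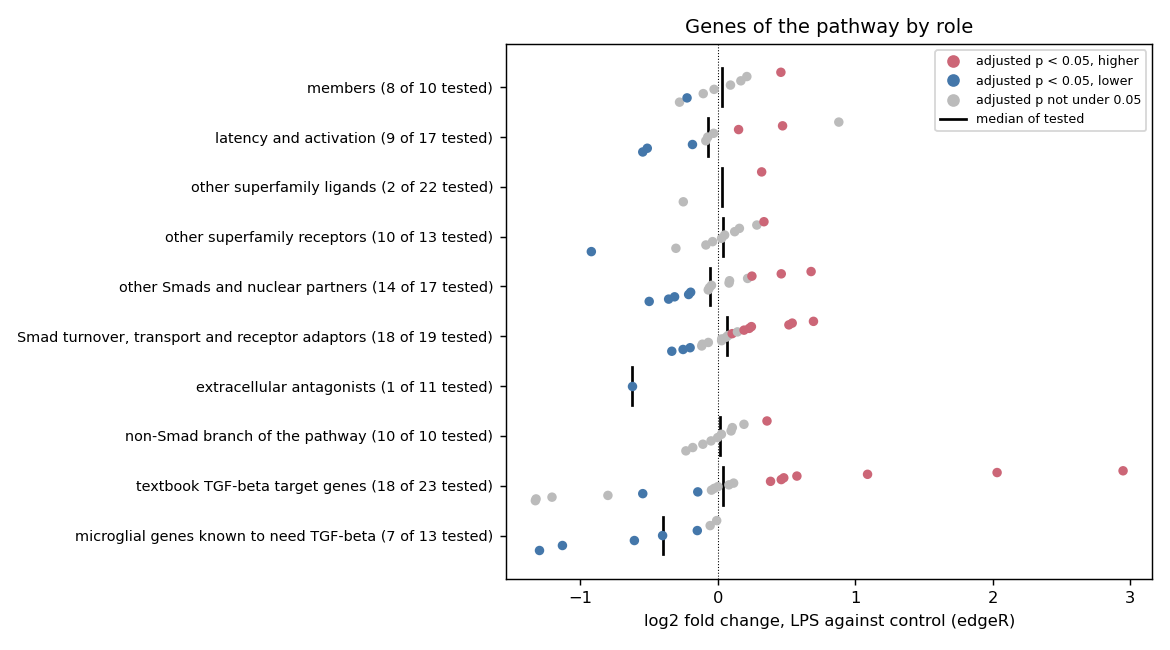
Log2 fold changes (LPS against control, edgeR) of the tested genes of each list, one point per gene, coloured by the call at an adjusted p under 0.05, with the list median as a black line; a gene may stand in several lists. The target gene list spreads widest, from -1.33 (Fn1) to 2.95 (Myc), and no gene of the microglial list is called higher.

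Textbook TGF-beta target genes moved apart from one another. The list held 24 names and 23 genes in the table, since 1 gene was listed under both its names. Of the 23, 18 were tested, 7 rose, 2 fell and 9 were not called, with a median of 0.041. The called share was 50% against 34.3% over all genes. Myc, a growth regulator that TGF-beta is known to repress in epithelial cells, rose from 3.41 ± 0.773 to 26.4 ± 1.93 CPM (log2 fold change 2.95 ± 0.14, SE, edgeR adjusted p = 3.0e-10). Junb, an AP-1 subunit, rose from 91.1 ± 5.35 to 194 ± 4.99 CPM (1.09 ± 0.051, edgeR adjusted p = 2.8e-10). Both are also known as early targets of other signals, and their values are of RNA alone. Snai1 rose by 0.58 (edgeR adjusted p = 0.0176), a call lost without control replicate 1 (0.52), control replicate 3 (0.56) or LPS replicate 2 (0.51) and by DESeq2. Cdkn1a, a cell cycle inhibitor and the target with the highest level per length in control libraries (56.8 RPKM), fell by 0.15 (edgeR adjusted p = 0.0249), a call lost without control replicate 3 (-0.16), LPS replicate 2 (-0.14) or LPS replicate 3 (-0.12). Of the target genes encoding inhibitors of differentiation, Id1, Id2 and Id3, with log2 fold changes of 0.081, 0.00089 and -0.046, none was called (edgeR adjusted p from 0.657 to 0.992). The matrix genes Col1a1, Col1a2, Col3a1 and Fn1 had log2 fold changes from -1.33 to -0.80 with adjusted p from 0.175 to 0.602. The 3 collagens were among the markers by which libraries were called collagen-bearing, and Fn1 held 19, 5 and 52 counts without LPS and 19, 6 and 2 with it. The number of target genes called was 5 without LPS replicate 2, and likewise 5 without the hepatocyte-bearing or the collagen-bearing libraries, instead of 9. Over all genes the share called was 28.0%, 21.9% and 10.4% in these settings.

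Of 13 genes that microglia are known to express under TGF-beta, 7 were tested, 5 fell and none rose, with a median of -0.40, against 15.7% lower and 18.7% higher over all genes. Mertk, a phagocytic receptor for dying cells, fell from 29.8 ± 1.37 to 12.1 ± 0.597 CPM (-1.30 ± 0.088, edgeR adjusted p = 2.1e-08). Its bridging ligands were also lower. Pros1 fell from 63.0 ± 1.96 to 47.7 ± 0.223 CPM (-0.40 ± 0.053, edgeR adjusted p = 3.1e-05). Gas6 fell by 0.61 (edgeR adjusted p = 0.0418), a call lost without control replicate 2 (-0.53), control replicate 3 (-0.58), LPS replicate 1 (-0.47) or LPS replicate 2 (-0.62), by DESeq2, without the hepatocyte-bearing libraries (-0.37, adjusted p = 0.488) and without the collagen-bearing libraries (-0.63, adjusted p = 0.198). Olfml3, a secreted glycoprotein of resting microglia, held 62, 74 and 69 counts without LPS and 32, 28 and 25 with it (-1.13 ± 0.23, edgeR adjusted p = 0.00116), and was not called without the hepatocyte-bearing (-1.04) or the collagen-bearing libraries (-1.38). Tmem119 and Cx3cr1 were tested and not called (-0.056 and -0.0082, adjusted p = 0.758 and 0.986). The other 6, P2ry12 among them, were below the filter. The count of 5 became 3 without control replicate 3 or LPS replicate 2, and 2 without the hepatocyte-bearing or the collagen-bearing libraries. Over all genes the share called fell in these settings too, to 27.0%, 28.0%, 21.9% and 10.4%.

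**Figure D5:**
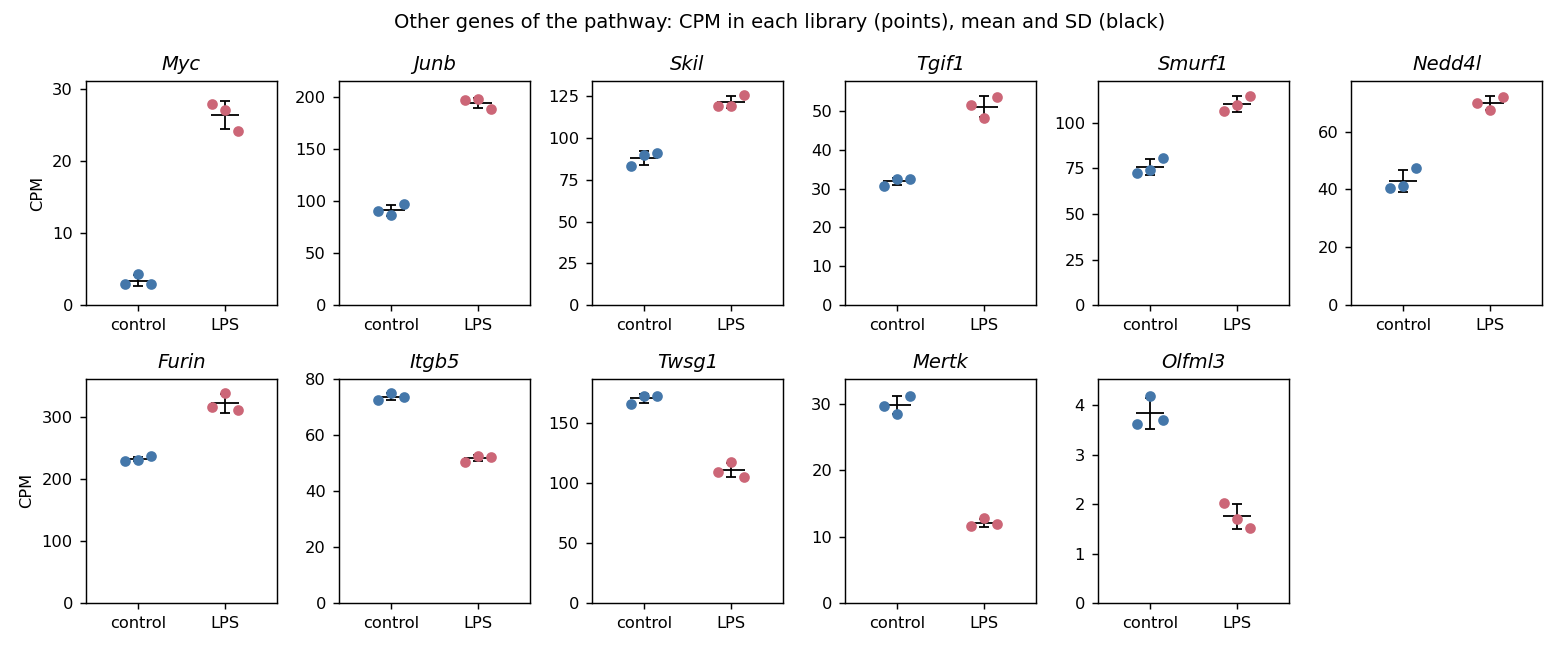
CPM (linear axes from 0) of 11 called list genes, chosen after their values were seen, in the 3 control (blue) and 3 LPS (red) libraries, with mean and SD in black. The groups are separate for each of these 11 genes, with Myc, Junb, Skil, Tgif1, Smurf1, Nedd4l and Furin higher and Itgb5, Twsg1, Mertk and Olfml3 lower with LPS.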

How the data were processed

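RNA-seq was performed on N9 microglia in 3 LPS and 3 control samples, grouped by their labels. Per the labels' processing notes, the authors' files were counted with featureCounts 1.5.0-p3 on mm10. The aligner, annotation release and use of strand are not given in the sources used here. The authors deposited raw read counts per gene for 54532 genes, with gene lengths and positions. A second deposited file holds the authors' own DESeq2 comparison, its 18 columns of values per sample and 2 of group means, and was not used.

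Counts were tested with edgeR 4.0.16 under R 4.3.3 (quasi-likelihood test, TMM, filterByExpr, prior count 0.125, treatment alone), with Benjamini-Hochberg adjustment over the 12296 genes tested. The floor of 3 counts covers counting error only. Standard errors are the log2 fold change divided by the square root of F, and 95% intervals use the test's degrees of freedom. Ratios within a library used exact permutation tests. The alternatives were DESeq2 1.42.0, RLE factors, no filter, no filter with robust dispersion, a filter at a mean of 10 counts, a prior count of 2, a replicate block and each library left out. Library totals without TMM factors and leaving out libraries with hepatocyte or collagen transcripts were chosen after seeing the data. Promoters came from RefSeq on GRCm38.p6, and 9 of the 10 genes had the same position in GENCODE M21. Figures used matplotlib 3.10.9.

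The 10 genes and the 9 pathway and 5 marker lists were chosen with earlier results of these data known. Named list genes are the up to 4 with the largest change among those called with over 10 counts in a library and the 2 with the highest mean level per length over all libraries. Genes named beyond this rule (Id1, Id2, Id3, the matrix genes, Tmem119, Cx3cr1, P2ry12, Aif1, Spi1, Ptprc, Csf1r, Trem2, Adgre1, Cldn5, Kdr, Gja1, Aldh1l1, Dcn and Ttll5) were chosen after their values were seen. Some genes that this rule picks are not reported here.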

Additional observations from a re-analysis of the deposited data

How the results depend on the processing

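Tgfb1, Smad2, Smad3 and Tgfbi were not called in any setting tried. The number of the 8 tested genes called was 2 in the reported fit, 1 with DESeq2, from 1 to 3 with each library left out, and 0 without the libraries that held hepatocyte transcripts or without those that held collagen transcripts, 2 settings that leave 1 control library, assumed to vary like the LPS libraries. Over all genes tested, 34.3% were called in the reported fit and from 27.0% to 32.5% with each library left out. With DESeq2, 3597 genes were called, against 4221 in the reported fit. They were 16.1% of 22311 genes, a set that also holds genes below the filter on low counts, so the denominators are unlike. The cause of each change below was not tested, beyond fewer samples where libraries were left out. With each library left out, the log2 fold change ran from -0.28 to -0.19 for Tgfbr2, from 0.36 to 0.53 for Smad7, from -0.15 to -0.082 for Tgfbr1, from 0.099 to 0.27 for Smad4, from -0.59 to 0.081 for Smad3, from 0.063 to 0.12 for Tgfb1, from -0.053 to -0.010 for Smad2 and from 0.056 to 0.31 for Tgfbi. Smad4 was called without the filter on low counts, at 0.16, with and without robust dispersion. Smad7 was not called with DESeq2 (0.45). Without TMM factors, Tgfb1 turned to -0.0061, Tgfbr1 was called at -0.20, and Smad7 (0.36) was not called. Without the hepatocyte-bearing libraries, Tgfbr2 (-0.13) and Smad7 (0.31) were not called. Without the collagen-bearing libraries, Tgfbr2 (-0.26) and Smad7 (0.68) were not called, and Smad3 turned to 0.21. Over all genes, 1337 were called in that last setting, against 4221 in the reported fit.

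For the lists, leaving out each library gave from 0 to 1 other ligands, 0 to 2 other receptors, 1 to 2 antagonists, 1 to 2 non-Smad genes, 5 to 12 target genes and 3 to 5 microglial genes called. The share called over all genes was from 27.0% to 32.5% in those fits. DESeq2 gave 0 receptors, with 3597 of 22311 genes called (16.1%), those below the filter on low counts included. Without TMM factors there were 0 ligands, 1 receptor and 3 non-Smad genes, with 39.5% of all genes called. Without the hepatocyte-bearing libraries there were 1 receptor, 2 non-Smad genes, 5 target genes and 2 microglial genes. Without the collagen-bearing libraries there were 19 list genes in all, with 2 of latency, 0 ligands, 0 receptors, 4 nuclear partners, 5 of Smad turnover, 5 target genes and 2 microglial genes. No filter with robust dispersion gave 2 non-Smad genes, with 4379 of the same 22311 genes called (19.6%). The replicate block gave 2454 higher and 2020 lower calls over all genes and 2 non-Smad genes, and changed no call among the 8 genes. Among named list genes it ended the call of Ltbp2 (-0.55, adjusted p = 0.0619) and gave one for Eng (0.12, adjusted p = 0.0293). Deviations of same-numbered libraries correlated at 0.135, 0.0504 and 0.0118, and 1 of 3 control and 2 of 3 LPS libraries correlated best with their own number, so the samples share a number and no pairing was assumed. Named list genes that turned sign were uncalled ones: Itgav (0.011 without the hepatocyte-bearing libraries), Bmpr1a (-0.049 without TMM factors, -0.022 without the collagen-bearing libraries), Strap (-0.023 without TMM factors) and Rhoa (from -0.016 to 0.017 with each library left out, 0.0065 without the hepatocyte-bearing libraries). Calls lost both without the hepatocyte-bearing and without the collagen-bearing libraries, with the values in that order, included Ltbp2 (-0.75 and -0.43), Acvr2a (0.31 and 0.23), Bambi (-0.95 and -0.50), Smad1 (-0.29 and -0.45), Fkbp1a (0.16 and 0.16), Cdkn1a (-0.19 and -0.15), Snai1 (0.68 and 0.46), Olfml3 (-1.04 and -1.38) and Gas6 (-0.37 and -0.63). Nrros (-0.20), Itgb1 (0.090) and Gdf15 (0.24) lost theirs in the latter setting alone of the pair. With fewer samples, 21.9% and 10.4% of all genes were called in these settings. Depth limits Tgfb2, Tgfb3 and Smad3.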
